A study of Caenorhabditis elegans with 6 samples.

Results

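The transthyretin-related genes of the nematode Caenorhabditis elegans were taken as every gene whose symbol starts with ttr-. Sequence names of the array probes were matched to the symbols of the RefSeq gene table, which lists 59 such genes, and 49 of them had a probe, 1 each, among the 18889 genes with a probe. The other 10 (ttr-7, ttr-34, ttr-36, ttr-38, ttr-41, ttr-42, ttr-45, ttr-49, ttr-56 and ttr-57) were not analysed here. A gene was tested where its spot was free of the marks of the image software on at least 2 arrays of each dye orientation, which held for 37 of the 49 genes and for 7989 of all genes. The table annotates ttr-4 as a pseudogene.

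The ttr genes encode small secreted proteins that share a fold with transthyretin, the carrier of thyroid hormone and retinol-binding protein in vertebrate blood. The family is greatly expanded in nematodes, and the function of most members is unknown. TTR-52 is the best understood member. It is secreted, binds phosphatidylserine exposed on the surface of dying cells, and bridges these cells to the engulfment receptor CED-1. TTR-11 also binds phosphatidylserine, and TTR-33 has been linked to the protection of dopaminergic neurons against oxidative damage.

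Wild-type worms of the Bristol N2 strain were raised from synchronized eggs at 16 °C for 72 h, to the L3 or L4 larval stage. Their food was the OP50 strain of Escherichia coli. Exposed worms grew on agar with a low dose mixture (LDM) of the organophosphorus insecticides chlorpyrifos (CPF) and diazinon (DZN), which act on acetylcholinesterase, and control worms grew on agar with the solvent acetone alone. The mixture held 0.5 of CPF and 1 of DZN, in mg per litre by the methods and in mg per millilitre by the labels. Whole worms of 4 dishes made up a sample, so that a change of expression in a cell and a change in the share of worms or cells that express a gene cannot be told apart. The methods name 6 independent biological replicates. Each array held 1 LDM and 1 control sample, with LDM in Cy5 on 3 arrays and in Cy3 on the other 3. The scanner headers give the control extracts of LDM in Cy5 replicate 3 and LDM in Cy3 replicate 1 the same number, and nothing else states whether they are 1 extract.

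Between 37.6 and 61.4% of the gene spots of an array were free of marks, and 59.0 to 77.8% were above the local background in both channels. The orientation of the dyes was checked on cyp-35A3, a cytochrome P450 gene, whose log2 ratio of LDM over control lay between 2.76 and 3.71 on the 6 arrays. In spite of this shared direction, LDM in Cy5 replicates 2 and 3 were negatively correlated over probes (r = -0.35 over unmarked spots and -0.23 over all gene spots). The family's counts and the genes described by array are also given with both arrays left out, where enough spots remained. In limma that fit keeps LDM in Cy5 replicate 1 alone in its orientation. This array then counts for as much as the 3 arrays with LDM in Cy3 together, whose spread alone sets the p-values.

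Transcripts of most ttr genes were readily detected in these larvae. On each array 73.5 to 83.7% of the ttr spots were unmarked and 83.7 to 89.8% were above background in both channels. The ttr genes measured on all 6 arrays numbered 33, or 67.3% of those with a probe, whereas for all genes with a probe this share was 34.4%. All 37 tested ttr genes were above background in both channels on every array. A ratio of these genes was therefore not set by a channel without signal.

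No shift of the family in 1 direction was seen with the LDM, although a modest shift either way is not excluded. The family medians of the 6 arrays had a mean of 0.09 and a standard deviation of 0.67. The fitted log2 ratios of LDM over control were positive for 22 of the 37 tested ttr genes and negative for 15, with a median of 0.07 beside -0.03 over all tested genes. They ranged from -0.52 in ttr-1 to 1.05 in ttr-23, with standard errors (SE) from 0.11 to 0.43. The lower end rests on a gene that was not measured on LDM in Cy5 replicate 3, and it was -0.11 without LDM in Cy5 replicate 2 as well and -0.23 with marked spots kept. For 22 genes the ratio was within 0.2 of no change, for 12 it lay between 0.2 and 0.5 in size, and for 3 (ttr-1, ttr-17 and ttr-23) it was larger than 0.5. In each of the 37 genes the range of the ratio over arrays exceeded the size of the fitted ratio. The median became negative, at -0.05, when the spread of the arrays was made equal. It was -0.03 when marked spots were kept, over all 49 genes with a probe. Its sign thus depends on these choices and on the genes included.

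**Figure D1:**
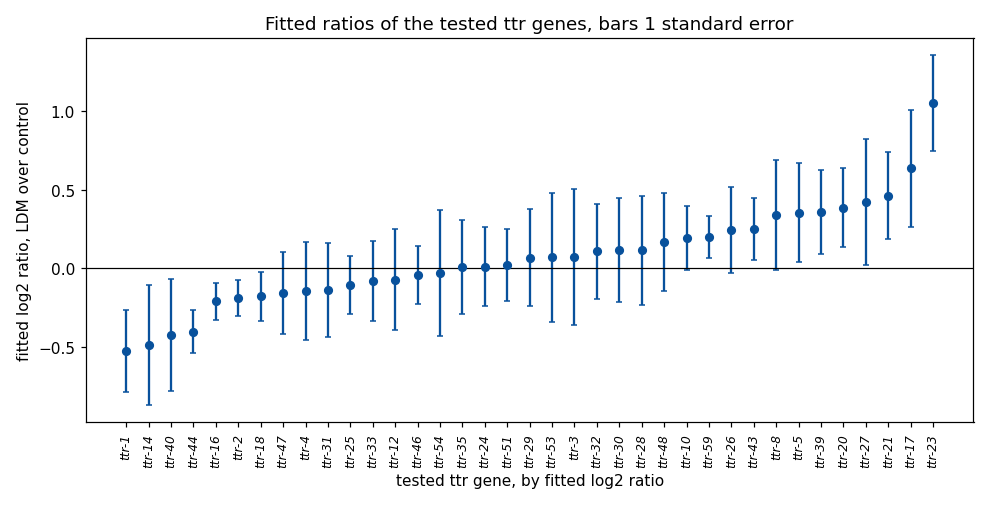
Fitted log2 ratios of LDM over control for the 37 tested ttr genes, ordered by ratio, from limma over 6 arrays, with bars of 1 standard error. Most genes lie close to 0, from -0.52 in ttr-1 to 1.05 in ttr-23.

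In limma 0 ttr genes were higher and 0 were lower in LDM at an adjusted p under 0.05, where 0.313% of all tested genes were called higher and 0.0626% lower. The lowest adjusted p of the family in limma was 0.347. With unadjusted p-values under 0.05 in limma, 1 ttr gene was higher (ttr-23) and 1 lower (ttr-44), beside 4.41% and 4.92% of all tested genes. The rank product, which compares the ranks of a gene across arrays and passes genes at a percentage of false positives (PFP) under 0.05, called 1 ttr gene higher and 0 lower. Of all tested genes it called 1.26% higher and 0.476% lower. Over 37 genes such shares come to less than 1 call by rank product and less than 2 in each direction at the unadjusted level, so that these counts do not set the family apart. No ttr gene was above 0 on all 6 arrays (0 of the 33 measured on all, against 2.43% of all such genes), and 2 were below 0 on all 6 (ttr-2 and ttr-44, or 6.06%, against 3.25%).

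The gene that passed the rank product was ttr-23 (T21C9.8), a member for which no role is stated here. Its log2 ratio was 1.44, 0.26 and 2.43 on LDM in Cy5 replicates 1 to 3 and -0.06, 0.69 and 1.55 on LDM in Cy3 replicates 1 to 3. It was thus higher in LDM on 5 of 6 arrays in both orientations, with the highest value on LDM in Cy5 replicate 3 and a value near 0 on LDM in Cy3 replicate 1. The fitted log2 ratio was 1.05 (SE 0.30, n = 6), or 2.07-fold, with a PFP of 0.00704 by rank product and an adjusted p of 0.347 in limma. The rank product call was lost without LDM in Cy3 replicate 3 (PFP 0.0665, log2 ratio 0.85), while without LDM in Cy5 replicate 3 the PFP was 0.0339 and the log2 ratio 0.79. Without LDM in Cy5 replicate 2 the log2 ratio was 1.33 with a PFP of 0.000937, and without both replicates 2 and 3 of LDM in Cy5 it was 1.08 with a PFP of 0.0378.

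The scanner intensities of ttr-23 show what these ratios rest on. With background subtracted and before normalization, LDM over control read 957 over 489, 1748 over 1020 and 609 over 120 on LDM in Cy5 replicates 1 to 3. On LDM in Cy3 replicates 1 to 3 the readings were 2065 over 3667, 2845 over 2463 and 4817 over 2703. Only LDM in Cy3 replicate 1 had the control brighter than LDM, and the high ratio of LDM in Cy5 replicate 3 came with the dimmest control spot of the 6.

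**Figure D2:**
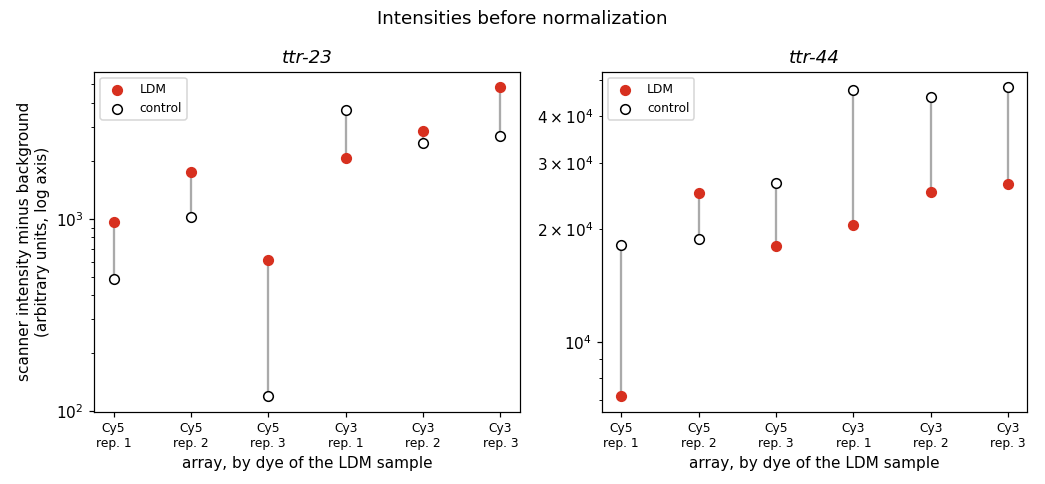
Scanner intensity minus local background (arbitrary units, logarithmic axis) of ttr-23 and ttr-44 on the 6 arrays, with LDM filled, control open, and a line joining the samples of 1 array. LDM is the brighter sample on 5 arrays for ttr-23, and for ttr-44 control is the brighter one on 5 arrays.

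The larger ratio of the 2 genes below 0 on all 6 arrays was that of ttr-44 (C56A3.2), for which no role is stated here either. The log2 ratio was -0.91, -0.29 and -0.21 on LDM in Cy5 replicates 1 to 3 and -0.46, -0.34 and -0.21 on LDM in Cy3 replicates 1 to 3. All 6 values lay below 0, and LDM in Cy5 replicate 1 stood apart from the others. The fitted log2 ratio was -0.40 (SE 0.14), with an unadjusted p of 0.0207 and an adjusted p of 0.428 in limma. Without LDM in Cy5 replicate 1 it was -0.29, with an unadjusted p of 0.075 in limma. Without LDM in Cy5 replicates 2 and 3 it was -0.62, in a fit where the value of -0.91 alone stands for its orientation. The plain mean over the remaining arrays was -0.48. The control spot of ttr-44 had pixels at the scanner's ceiling on LDM in Cy3 replicates 1 and 2 (26.3 and 6.6% of pixels), where the ratio holds a bounded control signal. On LDM in Cy5 replicate 2 the raw reading was 25013 in LDM over 18829 in control, and the ratio turned negative with the normalization of that array.

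ttr-2 (K03H1.4) had the narrowest range of the tested ttr genes. Its log2 ratio was -0.21, -0.19 and -0.04 on LDM in Cy5 replicates 1 to 3 and -0.21, -0.17 and -0.32 on LDM in Cy3 replicates 1 to 3. The values were all slightly below 0, within a range of 0.28, and the fitted log2 ratio was -0.19 (SE 0.11, adjusted p = 0.68 in limma), or -0.22 without LDM in Cy5 replicates 2 and 3. With marked spots kept, the value on LDM in Cy5 replicate 3 was 0.011. The raw reading on LDM in Cy5 replicate 2 was 13617 in LDM over 10579 in control, so that the negative ratio there came with normalization.

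ttr-16 (Y5F2A.1) also had a narrow range, but on measurements bounded by the scanner. The log2 ratio was -0.23, -0.03 and 0.03 on LDM in Cy5 replicates 1 to 3 and -0.19, -0.32 and -0.52 on LDM in Cy3 replicates 1 to 3, with a fitted log2 ratio of -0.21 (SE 0.12, adjusted p = 0.657 in limma), or -0.29 without LDM in Cy5 replicates 2 and 3. Its control spot had saturated pixels on all 3 arrays with LDM in Cy3 (50, 9.2 and 50% of pixels), where the ratio holds a bounded control signal. Of the 37 tested ttr genes, saturated pixels occurred in these 2, ttr-16 and ttr-44.

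Of the members with a known role, ttr-33 (C37C3.13) was the one tested. Its log2 ratio was -1.10, -0.22 and 1.07 on LDM in Cy5 replicates 1 to 3 and -0.07, 0.02 and -0.16 on LDM in Cy3 replicates 1 to 3. The arrays with LDM in Cy3 all lay near 0 and those with LDM in Cy5 spread to both sides, so that the fitted log2 ratio was -0.08 (SE 0.25, adjusted p = 0.96 in limma). The value rested on single arrays. It was 0.18 without LDM in Cy5 replicate 1, -0.37 without LDM in Cy5 replicate 3, and -0.59 when both opposed arrays, LDM in Cy5 replicates 2 and 3, were left out (unadjusted p = 0.0027 and adjusted p = 0.100 in limma). It also changed sign with print-tip loess, to 0.03, and with arrays weighted by their spread it was -0.48 (adjusted p = 0.035 in limma).

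ttr-52 (F11F1.7), the bridging molecule of cell corpse engulfment, had 1 unmarked spot and was therefore not tested. Over all its spots, normalized with the marked spots kept, the log2 ratio was 0.37, 0.23 and 0.37 on LDM in Cy5 replicates 1 to 3 and -0.72, -0.78 and -0.57 on LDM in Cy3 replicates 1 to 3. The values split fully by dye orientation, above 0 with LDM in Cy5 and below 0 with LDM in Cy3, and their mean over both orientations was -0.18. LDM was above background on 5 arrays and control on 4, with background-subtracted intensities from 24 to 663. For ttr-11 (F46B3.3), which had 0 unmarked spots, LDM was above background on 1 array and control on 2, and no ratio is given.

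Cell death and the removal of cell corpses, in which TTR-52 acts, were looked at through a list of 19 genes, of which 16 were tested. Besides genes of engulfment the list holds egl-1, ced-9, ced-4 and ced-3, which decide and carry out cell death, and egl-1 was not tested. Among them limma called 0 genes (0 at an unadjusted p under 0.05 in limma, and 0 by rank product). Their median log2 ratio was -0.01, with 8 genes positive and 8 negative. By array the list was not flat, with a median of 0.23 on LDM in Cy5 replicate 2 (10 of 16 genes above 0) and -0.36 on LDM in Cy5 replicate 3 (2 of 15). ced-1, which encodes the receptor bound by TTR-52, had a log2 ratio of -0.02 (SE 0.16) and was above 0 on 3 of 6 arrays.

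The main feature of the ttr genes was not their mean ratio but its movement from array to array. The standard deviation of the ratio over arrays had a median of 0.85 over the 37 tested ttr genes, compared with 0.42 over all tested genes. On LDM in Cy5 replicate 2 the median log2 ratio of the family was -0.76, with 2 of 37 genes above 0. On LDM in Cy5 replicate 3 it was 1.24, with 32 of 35 genes above 0. Nearly the whole family was thus below control on one array and above control on the other, although both are replicates of the same comparison in the same dye orientation.

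On the other arrays the family median was closer to 0 but most members still shared a side. It was 0.10 on LDM in Cy5 replicate 1, with 22 of 35 genes above 0, and -0.19 on LDM in Cy3 replicate 1, with 4 of 37 above 0. On LDM in Cy3 replicate 2 it was -0.18 with 6 of 37 above 0, and on LDM in Cy3 replicate 3 it was 0.33 with 30 of 37 above 0. The share of all tested genes above 0 remained between 46.0 and 49.5% on each array, and their medians lay between -0.042 and -0.0044.

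The family median kept its sign on 5 of the 6 arrays when the ratios were recomputed with median centring, print-tip loess, equal spread between arrays, another background correction, marked spots kept, or from the deposited log2 ratios. Its lowest and highest values were -0.80 and -0.39 on LDM in Cy5 replicate 2, and 0.71 and 1.42 on LDM in Cy5 replicate 3. The exception was LDM in Cy5 replicate 1, where it ranged from -0.01 to 0.17.

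**Figure D3:**
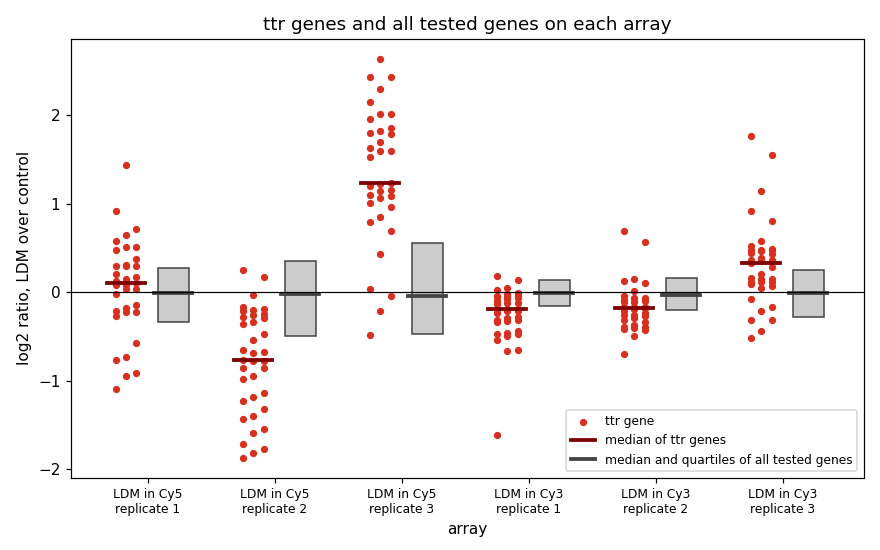
Log2 ratios of LDM over control on each of the 6 arrays, with 1 point per tested ttr gene and a bar at their median, beside a box of the quartiles of all tested genes with its median. The ttr genes lie low on LDM in Cy5 replicate 2 (median -0.76) and high on LDM in Cy5 replicate 3 (median 1.24), while the median of all genes stays near 0.

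Between these arrays the log2 ratio was higher on replicate 3 than on replicate 2 in 33 of the 33 ttr genes measured on all arrays, with a median difference of 2.17. Over all genes measured on all arrays the ratio was higher on replicate 3 in 46.3%, with a median difference of -0.10. The difference exceeded 1 in 27 of the 33 ttr genes (81.8%) and in 23.9% of all genes, and it exceeded 2 in 20 of the ttr genes. A ratio below 0 on replicate 2 and above 0 on replicate 3 was found in 28 of the 33 (84.8%) and in 31.9% of all genes. The pattern was noticed in these data and is given as a description, without a test.

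The members did not share this movement equally, with differences between LDM in Cy5 replicates 2 and 3 from 0.06 in ttr-16 to 3.73 in ttr-53. Once the family median of each array was subtracted, the median standard deviation over arrays of the 33 genes fell to 0.40 from 0.84, and it became smaller in 28 of them. The other 5 (ttr-2, ttr-16, ttr-18, ttr-44 and ttr-59) had the smallest differences between LDM in Cy5 replicates 2 and 3, from 0.06 in ttr-16 to 0.68 in ttr-18, so that the saturated genes ttr-16 and ttr-44 are among them. The family medians come from these same genes, so that subtracting them widens the spread of genes that moved little. The change in spread is therefore a description and adds no separate evidence. ttr-24 followed the family most closely, with a standard deviation of 0.09 about the family medians.

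The widest ranges were those of ttr-53, ttr-27 and ttr-14. ttr-53 (T14G10.3) had log2 ratios of 0.09, -1.72 and 2.02 on LDM in Cy5 replicates 1 to 3 and -0.21, -0.11 and 0.35 on LDM in Cy3 replicates 1 to 3, a range of 3.73 about a fitted log2 ratio of 0.07 (SE 0.41). ttr-27 (R90.2) had 0.51, -0.99 and 2.64 on LDM in Cy5 replicates 1 to 3 and -0.02, -0.09 and 0.49 on LDM in Cy3 replicates 1 to 3, a range of 3.63 about a fitted log2 ratio of 0.42 (SE 0.40). Both genes had their lowest value on LDM in Cy5 replicate 2 and their highest on replicate 3, and lay closer to 0 on the other 4 arrays. With both of those arrays left out the fitted log2 ratio was 0.049 for ttr-53 and 0.32 for ttr-27.

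ttr-14 (T05A10.3) moved otherwise. Its log2 ratio was -0.95, -1.32 and -0.49 on LDM in Cy5 replicates 1 to 3 and -1.61, -0.30 and 1.77 on LDM in Cy3 replicates 1 to 3, for a fitted log2 ratio of -0.48 (SE 0.38, adjusted p = 0.767 in limma). It was below 0 on 5 arrays and above 0 on LDM in Cy3 replicate 3 alone. The fitted log2 ratio was -0.94 without LDM in Cy3 replicate 3 (unadjusted p = 0.0074 and adjusted p = 0.536 in limma) and -0.09 without LDM in Cy3 replicate 1, while it was -0.50 without LDM in Cy5 replicates 2 and 3. The vitellogenin genes vit-2 and vit-6, which encode yolk proteins and mark the adult stage, had the same order of extremes, with a median over both genes of -3.0 on LDM in Cy3 replicate 1, 1.98 on LDM in Cy3 replicate 3, and -1.46 to -0.46 on the other 4. Over the 6 arrays the rank product called vit-6 lower (fitted log2 ratio -1.31, adjusted p = 0.511 in limma) but not vit-2 (log2 ratio -0.58, PFP 0.215), beside 0.476% of all tested genes. The part of these yolk genes in the ratio of ttr-14 was not tested.

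**Figure D4:**
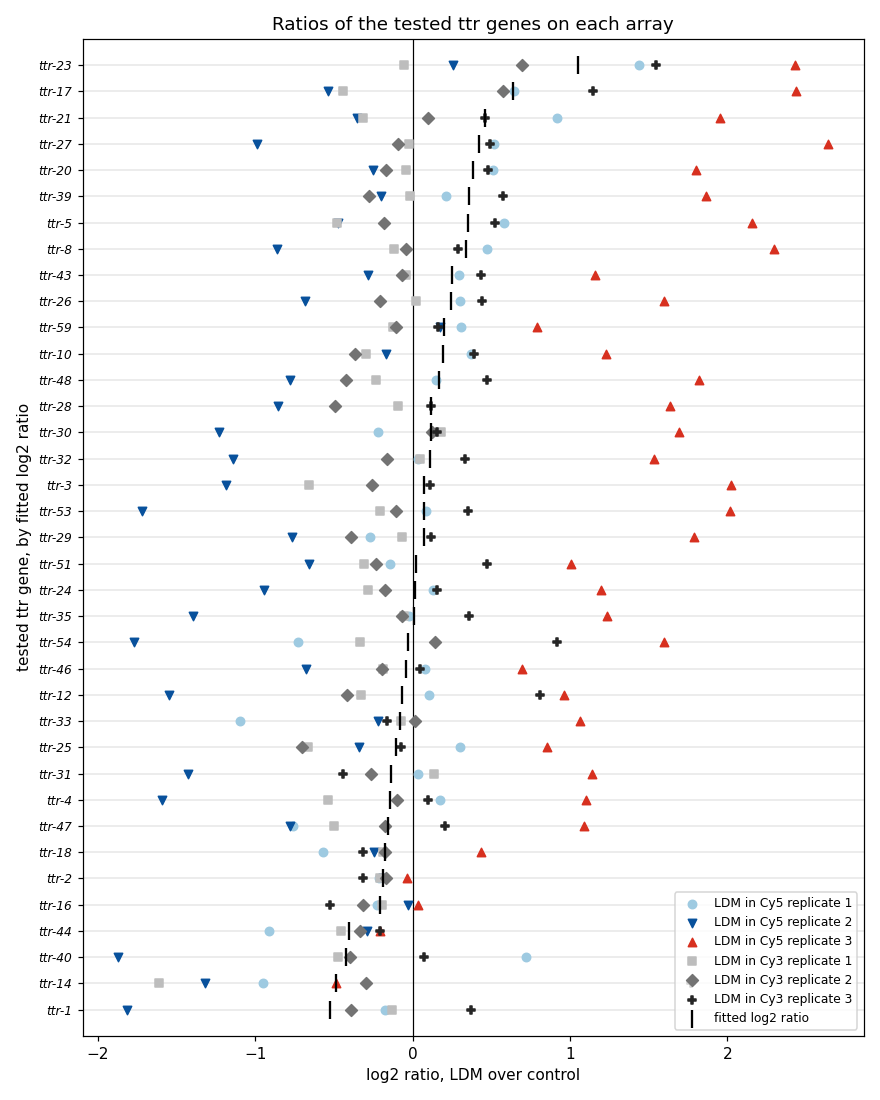
Log2 ratios of LDM over control of the 37 tested ttr genes, 1 row per gene, with a symbol for each of the 6 arrays and a vertical tick at the fitted ratio. LDM in Cy5 replicate 3 (red triangles) is the highest array for most genes and LDM in Cy5 replicate 2 (blue triangles) the lowest, with ttr-2, ttr-16 and ttr-44 among the genes with little movement.

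Several ttr genes are direct neighbours in the RefSeq gene table, and the runs that hold a gene described above were followed on each array. In the run of ttr-3, ttr-2 and ttr-1 the fitted log2 ratios were 0.07 (SE 0.43), -0.19 (SE 0.11) and -0.52 (SE 0.26). ttr-3 (K03H1.3) was measured on 5 arrays and was lowest on LDM in Cy5 replicate 2 (-1.19) and highest on LDM in Cy5 replicate 3 (2.02). ttr-1 (K03H1.6) was also measured on 5 arrays, without LDM in Cy5 replicate 3, and lay between -1.82 on LDM in Cy5 replicate 2 and 0.37 on LDM in Cy3 replicate 3. ttr-2, between them, had the narrowest range of the family, so that adjacent genes of 1 run differed in how far they moved.

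The pair ttr-16 and ttr-17 differed in the same manner. ttr-17 (Y5F2A.2) had log2 ratios of 0.64, -0.54 and 2.44 on LDM in Cy5 replicates 1 to 3 and -0.44, 0.57 and 1.15 on LDM in Cy3 replicates 1 to 3. Its fitted log2 ratio, 0.64 (SE 0.37), was the second highest of the tested ttr genes but did not pass (PFP 0.110 by rank product, adjusted p = 0.67 in limma). The rank product called it higher (PFP 0.0408) when LDM in Cy5 replicate 2 was left out, at a log2 ratio of 0.98. When LDM in Cy5 replicate 3 was left out instead, the log2 ratio was 0.24 and the PFP 0.462, and with both left out these were 0.53 and 0.314. Its neighbour ttr-16 had -0.21, and the difference between both ratios was not tested.

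In 2 other runs the neighbours moved alike. In the run of ttr-27, ttr-28 and ttr-29 (R90.2, R90.3 and R90.4) the log2 ratios on LDM in Cy5 replicate 2 were -0.99, -0.85 and -0.76, and on LDM in Cy5 replicate 3 they were 2.64, 1.63 and 1.79. The fitted ratios of ttr-28 and ttr-29 were 0.12 (SE 0.35) and 0.07 (SE 0.31). ttr-54 (T14G10.4), next to ttr-53, had -1.77 and 1.60 on these arrays and a fitted log2 ratio of -0.03 (SE 0.40), which was -0.24 with both arrays left out. With both left out that of ttr-29 was -0.19. The genes of each run thus shared the low and the high array, which is not particular to neighbours. Of the 33 ttr genes measured on all arrays, 28 were below 0 on LDM in Cy5 replicate 2 and above 0 on replicate 3. Both runs were followed because they hold ttr-27 or ttr-53, which were picked for their wide ranges.

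Cell type and stage markers also moved between arrays, some of them against the ttr genes. On LDM in Cy5 replicate 2 the 4 germline markers had a median log2 ratio of 0.70, the 2 tested oocyte markers 0.64, the 4 body wall muscle markers 0.52 and the 3 tested pharynx markers 0.60. On LDM in Cy5 replicate 3 these medians were -0.81, -1.15, -0.83 and -0.91. All 4 germline and all 4 muscle markers were above 0 on replicate 2 and below 0 on replicate 3, opposite to the ttr family. The 2 tested oocyte markers did the same. The pharynx markers were split, with 2 of 3 above 0 on replicate 2 and 1 of 3 on replicate 3.

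The medians of the other cell type lists moved less, and those of the glia, neuronal and intestine markers moved with the family. They were -0.44 and 0.54 for 3 glia markers on LDM in Cy5 replicates 2 and 3, -0.13 and 0.42 for 5 tested neuronal markers, and -0.05 and 0.31 for 5 intestine markers. Members of a list were often split. On replicate 2, 1 glia, 2 neuronal and 2 intestine markers were above 0, and on replicate 3 these numbers were 2, 5 and 3. For the 4 tested epidermis markers the medians were -0.17 and -0.23. For the 2 tested sperm markers they were -0.07 and -1.06, a fall where the family rose. The sperm genes msp-3, msp-31 and spe-9 and the adult collagen gene col-19 were not tested. Over the 6 arrays, the glia medians were lowest on LDM in Cy3 replicate 3 (-1.08), where the ttr genes were above 0. The part of cell and stage composition in the movement of the ttr genes was not tested.

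The moult, at which the cuticle is replaced, marks the larval stages, and 19 of 20 genes of a moulting list were tested. In limma 0 passed (1 was higher and 5 lower with unadjusted p-values under 0.05, beside 4.41% and 4.92% of all tested genes), and the rank product called 1 higher and 0 lower, beside 1.26% and 0.476%. That gene was dpy-17, a cuticle collagen gene, with a log2 ratio of 0.87 (SE 0.29, PFP 0.0416) above 0 on the 4 arrays where it was measured. The median log2 ratio of the list was -0.22, with 3 genes positive and 16 negative. Its array medians were -0.30 on LDM in Cy5 replicate 2, -0.38 on replicate 3 and between -0.28 and 0.06 on the others, without the swing of the ttr genes.

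**Figure D5:**
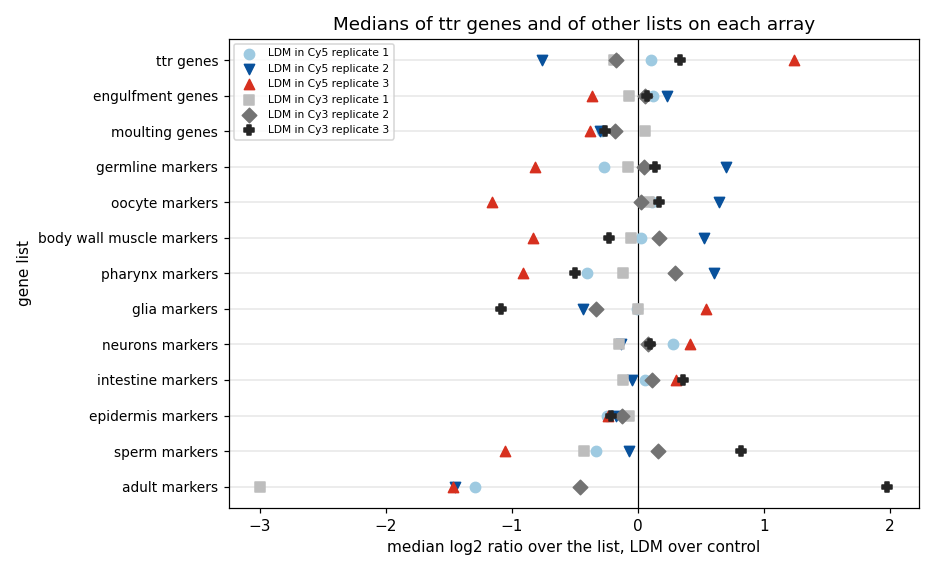
Median log2 ratio of LDM over control over the tested ttr genes and over each of 12 other gene lists, 1 row per list, with a symbol for each of the 6 arrays. On LDM in Cy5 replicates 2 and 3 the median of the ttr genes goes from -0.76 to 1.24. The medians of the germline, oocyte, muscle and pharynx markers and of the engulfment genes go the opposite way, from above to below 0. That of the sperm markers falls as well.

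The family's summary values changed with single arrays. Without LDM in Cy5 replicate 2 the median of the tested ttr genes was 0.34 and 9 of 33 were higher at an unadjusted p under 0.05 in limma, where 9.58% of all tested genes were higher in that fit. Without LDM in Cy5 replicate 3 the median was -0.24 and 4 of 35 were lower, beside 11.1% of all tested genes. Leaving out both gave a median of 0.03, with 2 of 35 higher and 4 lower by the same measure, beside 7.72% and 11.2% of all tested genes. In each of these fits 0 ttr genes passed limma after adjustment. When limma weighted the arrays by their spread, which gave LDM in Cy5 replicates 2 and 3 weights of 0.27 and 0.21 and LDM in Cy5 replicate 1 and LDM in Cy3 replicate 2 weights of 3.62 and 3.63, 2 ttr genes were higher (ttr-21 and ttr-23) and 4 lower (ttr-18, ttr-33, ttr-44 and ttr-47) at an adjusted p under 0.05. That fit called 1408 of all tested genes, 7.18% higher and 10.4% lower, against 30 without weights.

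The 12 ttr genes that were not tested divide by signal. ttr-9, ttr-19, ttr-22 and ttr-37 were above background in LDM on 5 or 6 arrays and in control on all 6. With marked spots kept, their log2 ratios averaged -0.28, -0.03, 0.01 and 0.02, with standard deviations over arrays between 0.72 and 1.04, so that no shift was larger than its spread. ttr-52 and ttr-55 were above background on some arrays, as were ttr-11, ttr-13, ttr-15 and ttr-50 on at most 2 in either sample. ttr-6 and ttr-58 were above background on 0 arrays in either sample.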

How the data were processed

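The 6 arrays compared worms exposed to the LDM with control worms (long-oligonucleotide arrays, dye swap). The authors deposited, for each of 23232 spots, the foreground and the local background intensity of both dyes, not yet normalized, together with the percent of pixels at the scanner's ceiling. Their series table, as deposited, holds log2 ratios after loess and Aquantile normalization in limma. Its scale and direction were checked against the recomputed ratios (r from 0.974 to 0.991).

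Intensities were corrected with normexp (offset 50), normalized by global loess over unmarked gene spots and by Aquantile between arrays, and turned to LDM over control (limma 3.58.1, R 4.3.3). The untested genes were normalized with marked spots kept. A spot was above background by more than 2 background SD. A gene was represented by its brightest tested probe. The linear model held the LDM and a dye effect, with Benjamini-Hochberg adjustment over 7989 genes. The rank product of the methods was rewritten with 100 permutations. Both were tested on simulated data. The check that the rank product had to pass gave all genes the same spread. It was also run with the own spread of each gene, and the calls of that run are not reported here. Real genes differ in spread, as ttr-23 shows with a standard deviation over arrays of 0.93, against a median of 0.42 over all tested genes. Of the gene probes, 95.1% matched RefSeq (WBcel235) by sequence name. The array files name no build, so no coordinates are given, and no sequences were used.

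Genes described by array were those called by limma or rank product, those with 1 sign on all arrays, those with a known role, the 3 widest and 3 narrowest ranges, and members of a neighbouring run with one of these. The members and lists were chosen with earlier results of these data known. Alternatives were other background corrections and normalizations, no dye term, a replicate block, array weights, a term for the date of image analysis, the mean of all probes, marked spots kept, and dim probes or single arrays left out. Leaving out both opposed arrays was added after seeing the data. The number of arrays limits the precision.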

Additional observations from a re-analysis of the deposited data

Results flagged for a closer look

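A single array can stand apart by this measure (the gap to the nearest other array against the whole range) in about 1 of 20 genes by chance, and 3 of the 37 tested ttr genes had such a value among their arrays. The share of all tested genes with such a value is not given here, so that this count does not set the family apart. The log2 ratio of ttr-20 on LDM in Cy5 replicate 3 was 1.80, far above its other arrays, which lay between -0.25 and 0.51. The log2 ratio of ttr-29 on the same array was 1.79, with its other arrays between -0.76 and 0.12. The log2 ratio of ttr-44 on LDM in Cy5 replicate 1 was -0.91, far below its other arrays, which lay between -0.46 and -0.21.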

How the results depend on the processing

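The counts of 0 ttr genes past the adjusted threshold in limma held under every alternative except array weights (2 higher and 4 lower), a fit that called 1408 genes in all against 30. Over all genes 25 of the 30 calls were higher, 26 of 36 when the spread of the arrays was made equal, 25 of 41 without LDM in Cy5 replicate 3, and 574 of 1408 with array weights, where most calls were lower. At an unadjusted p under 0.05 in limma, with 1 higher and 1 lower, array weights gave 3 and 7. Both opposed arrays left out gave 2 and 4. The number lower was 0 with median centring, print-tip loess or a term for the date of image analysis, which has LDM in Cy3 replicate 1 alone in its class and gives the ratios of the fit without it. It was 2 with equal spread or marked spots kept, the second gene in the latter being ttr-6, which is above background on 0 arrays. With single arrays left out, the number higher ranged from 1 to 9 and the number lower from 0 to 4, and the rank product called 0 to 2 ttr genes higher. In these fits 2.35 to 9.58% of all tested genes were higher and 2.11 to 11.1% lower at the unadjusted level, against 4.41% and 4.92% with all arrays. The cause of these changes was not tested.

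Whether replicate numbers pair arrays is unclear, and they were not treated as pairs. Deviations of same-numbered arrays from the means of an orientation correlated at -0.03, 0.41 and 0.23, with 4 of 6 arrays correlating best with their own number. With a replicate block, 2 ttr genes were higher at an unadjusted p (ttr-17 and ttr-23) and 0 after adjustment, and limma called 29 genes in all.

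Of 272 recomputed ratios of the genes described by array, 26 changed sign, all in genes with fitted ratios within 0.5 of 0. ttr-3 became -0.059 with array weights, -0.024 with marked spots kept, -0.023 with the replicate block and -0.18 with equal spread. ttr-28 became -0.044 with array weights, -0.037 with marked spots kept and -0.054 with equal spread. ttr-29 became -0.22 with array weights, -0.048 with equal spread and -0.19 without both opposed arrays. ttr-53 became -0.0034 with array weights and -0.0020 with median centring. ttr-54 became 0.12 with the date term, 0.0031 without background correction, 0.16 with print-tip loess and 0.073 with equal spread, and ttr-33 became 0.031 with print-tip loess. With single arrays left out, ttr-3 ranged from -0.020 to 0.17, ttr-27 from -0.055 to 0.85, ttr-29 from -0.32 to 0.32, ttr-33 from -0.37 to 0.18, ttr-53 from -0.40 to 0.53 and ttr-54 from -0.50 to 0.34. The 12 untested genes had dim or marked spots, which limits what can be said of them.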
